A study of Mus musculus with 9 samples.

Results

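The 10 early genes of the EGR, NR4A and IER groups and the Krüppel-like factor gene Klf2 were followed in RAW 264.7 cells, a mouse macrophage line transformed by a leukaemia virus. They were taken by gene symbol (Egr1, Egr2, Egr3, Nr4a1, Nr4a2, Nr4a3, Ier2, Ier3, Ier5 and Klf2). All 10 were found among the 51826 genes counted, and all 10 had enough counts to be among the 14458 tested. Polyadenylated RNA was sequenced from 9 libraries in 3 groups. Vehicle cells received solvent, LPS cells received lipopolysaccharide at 300 ng/mL for 6 h, and calycosin plus LPS cells received calycosin, an isoflavone, at 100 µg/mL for 24 h and then the same LPS. All groups were cultures of this one line in medium with fetal bovine serum, and each had 3 libraries that the labels number as biological replicates. No labels tie these to separate days, so p-values measure the spread between these libraries. No group received calycosin alone, and 6 h was the only time after LPS, so earlier peaks of these genes were not measured.

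Immediate early genes are transcribed within minutes of a stimulus from factors already present in the cell, such as SRF with its ternary complex partners, CREB and NF-kappaB. Their mRNAs are short-lived, so their levels usually follow the signal closely. EGR proteins are zinc finger transcription factors, NR4A proteins are orphan nuclear receptors that act without a known natural ligand, IER proteins are small regulators of survival and growth signalling, and KLF2 is a zinc finger factor that holds macrophages in a resting state. In macrophages, TLR4, the receptor that senses LPS, reaches these genes through ERK, p38 and NF-kappaB.

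Total counts ran from 27784737 to 38524105 per library, and levels are given as CPM, counts divided by the effective library size (TMM scaling). Vehicle replicate 3 and calycosin plus LPS replicate 2 stood apart from their groups. Mitochondrially encoded genes took 21.9% of counts in the former against 3.68% and 3.79% in the other vehicle libraries, and 7.45% in the latter against 17.2% and 19.4%. They took 13.0% to 14.7% in LPS cells. Of 10 macrophage markers, the 9 with a unique identifier summed to 4820 to 5305 CPM in vehicle, 5187 to 5429 CPM in LPS and 3682 to 4322 CPM in calycosin plus LPS libraries. The 18 markers of other cell types summed to 1.43 to 6.85 CPM, with 8 of them (among them the epithelial genes Epcam and Krt18) at 0 counts in all libraries. These sums of other markers were 4.90 to 6.85 CPM in LPS cells and at most 2.47 CPM elsewhere. Of these markers, Cdh5 had 0.354 ± 0.205 CPM in vehicle, 4.76 ± 0.874 in LPS and 0.671 ± 0.0922 in calycosin plus LPS cells. Zbtb46 went the other way, from 0.505 ± 0.0792 CPM in vehicle to 0.113 ± 0.0446 CPM in LPS cells. It had 0.867 ± 0.181 CPM in calycosin plus LPS cells. Within the macrophage sum, Csf1r went from 477 ± 93.4 to 127 ± 2.77 CPM with LPS, and Cd14 from 513 ± 68.1 to 1248 ± 54.9 CPM. Mertk, also part of it, averaged 0.0203, 0.0304 and 0.0574 CPM in vehicle, LPS and calycosin plus LPS cells and was not tested. The part of either sum in the results was not tested. In bulk RNA, a change in the number of cells that express a gene cannot be told apart from a change per cell.

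The promoter windows of the NR4A genes, Egr2, Ier3 and Klf2 are shown first. Nr4a2, Egr2, Ier3 and Klf2 were called between calycosin plus LPS and LPS, and Nr4a1 and Nr4a3 are relatives of Nr4a2. The windows are the 250 bases before a RefSeq start (GRCm38.p6, gene strand), shortened where an exon of the GENCODE annotation begins earlier. A RefSeq window was found for 7 of the 10 genes, and none for Egr1, Egr3 and Ier2. The Ier5 window (chr1: 155099637 to 155099886) held none of the sites searched and is not shown. Capitals mark the cyclic AMP response element (CRE) half-site TGACG on either strand, the CArG box bound by SRF, and the NF-kappaB site.
Nr4a1, chr15:101266596-101266845, plus strand: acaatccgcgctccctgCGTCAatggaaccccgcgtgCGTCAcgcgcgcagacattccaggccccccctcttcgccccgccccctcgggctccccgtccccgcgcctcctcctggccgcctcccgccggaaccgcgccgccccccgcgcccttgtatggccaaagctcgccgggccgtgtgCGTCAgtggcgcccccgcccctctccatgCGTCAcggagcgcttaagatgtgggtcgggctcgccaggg
Nr4a2, chr2:57124004-57124253, minus strand: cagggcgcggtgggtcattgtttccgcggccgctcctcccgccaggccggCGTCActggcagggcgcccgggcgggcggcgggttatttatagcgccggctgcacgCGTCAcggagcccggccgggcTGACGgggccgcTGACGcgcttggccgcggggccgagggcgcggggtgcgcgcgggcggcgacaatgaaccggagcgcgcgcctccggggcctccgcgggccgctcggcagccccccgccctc
Nr4a3, chr4:48045055-48045152, plus strand: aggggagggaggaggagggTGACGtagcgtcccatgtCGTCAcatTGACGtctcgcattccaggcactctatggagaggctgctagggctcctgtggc
Egr2, chr10:67537619-67537868, plus strand: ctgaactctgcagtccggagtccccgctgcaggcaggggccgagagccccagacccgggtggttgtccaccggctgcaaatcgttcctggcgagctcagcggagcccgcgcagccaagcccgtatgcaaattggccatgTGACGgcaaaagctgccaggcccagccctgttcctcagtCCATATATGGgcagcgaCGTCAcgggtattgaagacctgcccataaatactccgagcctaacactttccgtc
Ier3, chr17:35821463-35821683, plus strand: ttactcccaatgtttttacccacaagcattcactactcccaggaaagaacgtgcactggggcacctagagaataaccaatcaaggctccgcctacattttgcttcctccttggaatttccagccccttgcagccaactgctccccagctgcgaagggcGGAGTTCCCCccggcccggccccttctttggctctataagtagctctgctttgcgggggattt
Klf2, chr8:72318812-72319032, plus strand: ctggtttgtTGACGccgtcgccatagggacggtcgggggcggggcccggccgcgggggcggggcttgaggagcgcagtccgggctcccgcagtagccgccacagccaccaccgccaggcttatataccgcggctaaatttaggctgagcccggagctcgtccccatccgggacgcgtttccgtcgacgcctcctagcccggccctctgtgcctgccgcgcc

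Each of the 3 NR4A windows held 4 CRE half-sites over its full 250 bases, 3 of which lie in the stretch shown for Nr4a3. At least 1 such half-site is present in 17.75% of 32817 windows of that length, and 4 or more in 0.137% (45 windows). The cut of 4 is the number found in the NR4A windows themselves, so that share is not a test of them. In Nr4a1 the matches begin 233, 213, 69 and 40 bases before the start. The Egr2 window held 2 half-sites and 1 CArG box, which begins 72 bases before that start, and a CArG box is present in 1.47% of all windows. Another start of Egr2 has its own CArG box in the window before it. The window of the most upstream start of Egr2 (chr10: 67535249 to 67535498) held none of the sites searched. The Ier3 window held 1 NF-kappaB site (3.897% of all windows) and the Klf2 window 1 CRE half-site. The full CRE TGACGTCA, the EGR site GCGTGGGCG and the NR4A site AAAGGTCA, searched on both strands, matched none of the members' windows and 1.55%, 0.536% and 1.34% of all windows. The sites searched do not overlap each other in these windows, apart from the shared letters of the half-site and the full CRE. A match is a description of letters and was not measured as binding.

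LPS for 6 h left the early genes far apart from one another. Egr1, Nr4a3, Egr2, Ier3, Ier2 and Ier5 were higher than in vehicle cells, by folds from 3.05 for Ier5 to 243.5 for Egr1. Nr4a1 was lower, at the edge of the threshold, and Egr3, Nr4a2 and Klf2 were not called. With calycosin pretreatment, Nr4a2, Egr2, Ier2 and Ier3 were lower than with LPS alone, by 6.18-fold, 3.70-fold, 3.69-fold and 2.73-fold, and Klf2 was 1.52-fold higher. Egr1, with the largest fold of the members whose vehicle level was above the floor of 3 counts, was not called between these groups, whose libraries overlapped.

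By edgeR's quasi-likelihood test with Benjamini-Hochberg adjustment over all genes tested and a threshold of 0.05, 6 of the 10 genes were higher and 1 lower with LPS than with vehicle, where 56.3% of all genes tested were called, 27.3% as higher and 28.9% as lower. The groups did not overlap in CPM for 7 of the 10, against 60.8% of all genes tested. The median log2 fold change of the 10 was 2.19, beside -0.07 over all genes tested. Between calycosin plus LPS and LPS, 1 of the 10 was higher and 4 were lower, where 29.1% of all genes were called, 16.1% as higher and 12.9% as lower. The groups did not overlap for 6 of the 10, against 49.7% of all genes, and the median was -0.34, beside 0.02. Between calycosin plus LPS and vehicle, 7 were higher and 1 was lower, where 49% of all genes were called, 25.4% as higher and 23.6% as lower. The groups did not overlap for 8 of the 10, against 56.2%, and the median was 1.07, beside -0.0045. On log2(TPM + 1) the split of all calls differed: 17.5% of the genes limma called with LPS were higher, against 48.6% in edgeR, and 80.9% against 55.5% in calycosin plus LPS over LPS. In calycosin plus LPS over vehicle it was 28.8% against 51.8%, and 41.7% in edgeR with an offset for GC content. The median of all genes tested was -0.61, 0.25 and -0.33 on log2(TPM + 1) in the 3 comparisons, and -0.12, -0.04 and -0.14 with the GC content offset. The 3 comparisons share groups, so their counts are not independent.

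**Figure D1:**
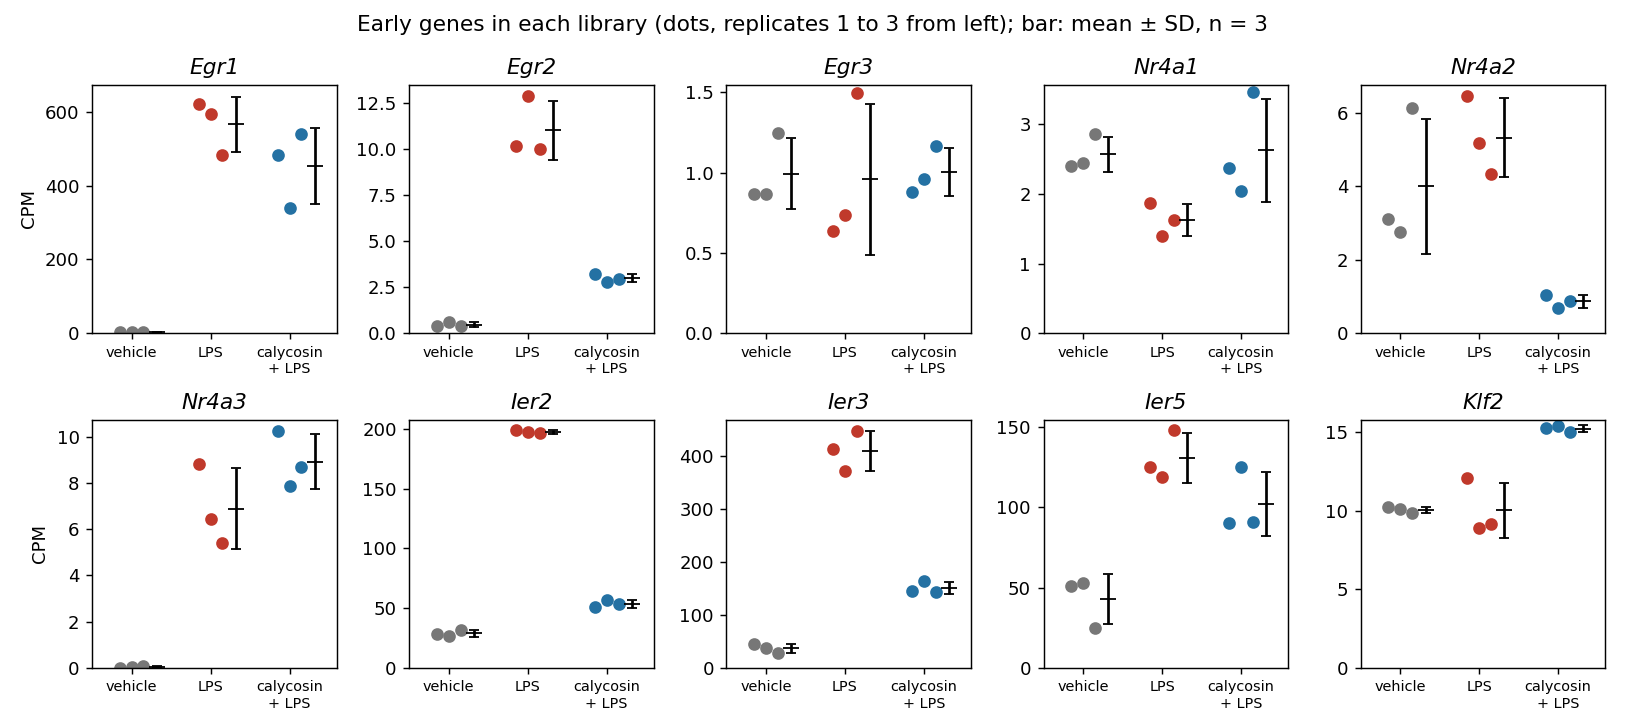
Level of each gene in CPM (vertical axis, from 0) in the 9 libraries, by group, with the mean and SD of 3 libraries beside the dots. Ier2 sits at 196 to 199 CPM in LPS cells and at 50.5 to 56.5 CPM with calycosin plus LPS, while Klf2 sits at 14.99 to 15.4 CPM with calycosin plus LPS and at 8.90 to 12.1 CPM in the other groups.

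Egr1 (ENSMUSG00000038418, chromosome 18: 34859823 to 34864984, GRCm38) encodes the founding EGR factor, which binds GC-rich promoters. It had 1.63, 1.60 and 3.89 CPM in vehicle replicates 1 to 3, 623, 596 and 483 CPM in LPS cells, and 483, 339 and 541 CPM with calycosin plus LPS. All stimulated libraries lay far above all vehicle libraries, and the 2 stimulated groups overlapped. The log2 fold change with LPS was 7.93 (SE 0.42, adjusted p = 2.68e-07), and that of calycosin plus LPS over LPS was -0.32 (SE 0.30, adjusted p = 0.462). Within groups, Egr1 was highest in the vehicle library of high mitochondrial share and lowest in the calycosin plus LPS library of low share. When the mitochondrial share entered the model as a covariate, an alternative added after seeing the data, the difference between the stimulated groups was -0.39 and was called (adjusted p = 0.00413). Against vehicle replicate 3 alone, whose mitochondrial share alone among the vehicle libraries was high, Egr1 was higher with LPS by 7.16 on the log2 scale, with no replicate in the vehicle arm. Calycosin plus LPS over vehicle was 8.27 without the 2 libraries that stood apart, against 7.61 with them.

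Egr2 (ENSMUSG00000037868, chromosome 10: 67535475 to 67542188), a relative of Egr1 known for roles in myelination and in myeloid and lymphoid cell states, had 0.382, 0.617 and 0.365 CPM in vehicle cells. It reached 10.2, 12.9 and 10.0 CPM with LPS and 3.23, 2.79 and 2.91 CPM with calycosin plus LPS. The 3 groups did not overlap, and the pretreated cells stood between the other groups. Egr2 rose 23.8-fold with LPS (log2 4.57, SE 0.25, adjusted p = 3.37e-07) and was 3.70-fold lower in pretreated cells than with LPS alone (log2 -1.89, SE 0.21, adjusted p = 3.49e-04). It remained 6.43-fold above vehicle (adjusted p = 1.71e-05). The Egr2 calls held under all 20 alternatives in each comparison, although the fold was smaller on log2(TPM + 1), where low levels are compressed (2.23 with LPS, -1.26 for calycosin plus LPS over LPS and 0.98 for calycosin plus LPS over vehicle).

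Egr3 (ENSMUSG00000033730, chromosome 14: 70077203 to 70082614), a further member of the family that works beside Egr2 in lymphocytes, was read from only 14 to 43 counts per library. It had 0.863, 0.863 and 1.25 CPM in vehicle, 0.637, 0.738 and 1.496 CPM in LPS and 0.877, 0.962 and 1.17 CPM in calycosin plus LPS cells. The groups overlapped in each pair, and no difference was detectable at this depth (adjusted p = 0.938, 0.921 and 0.966 in the 3 comparisons).

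Measured per transcript length in TPM, which allows genes to be compared within a library, the makeup of the EGR group differed between vehicle and LPS. Egr3 made up 46.6% to 55.2% of the summed TPM of the 3 EGR genes in vehicle libraries, Egr1 30.6% to 46.8% and Egr2 6.65% to 17.3%. With LPS, Egr1 made up 95.5% to 97.3%, and with calycosin plus LPS 97.9% to 98.5%. The summed EGR level went from 2.99 ± 0.115 TPM (SD, n = 3) to 172 ± 17.2 and 167 ± 5.21 TPM. In counts without length correction, Egr1 already made up 52% to 70.7% in vehicle cells and Egr3 22.7% to 30.1%. Such shares do not depend on the scaling between libraries. No exact test of 3 against 3 can go below 0.1.

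The NR4A genes separated under both treatments. Nr4a3 (ENSMUSG00000028341, chromosome 4: 48045153 to 48086447), which encodes NOR1, had 0, 2 and 2 counts in the vehicle libraries, under the floor of 3 counts. It had 8.83, 6.44 and 5.401 CPM with LPS and 10.2, 7.86 and 8.71 CPM with calycosin plus LPS. From 4 counts over the vehicle group and 481 over the LPS group, the ratio of LPS to vehicle was 224 (95% exact interval 87.0 to 826, counting error only). With 931 counts in calycosin plus LPS cells the ratio to vehicle was 290 (112.9 to 1066). Both comparisons were called (adjusted p = 7.34e-07 and 7.74e-07). The stimulated groups overlapped, with a log2 difference of 0.38 (SE 0.28, adjusted p = 0.338).

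Nr4a2 (ENSMUSG00000026826, chromosome 2: 57106830 to 57124003), which encodes NURR1, a receptor known to restrain inflammatory genes in macrophages and microglia, had 3.11, 2.76 and 6.11 CPM in vehicle cells and 6.47, 5.17 and 4.32 CPM in LPS cells. With calycosin plus LPS it had 1.03, 0.681 and 0.874 CPM, below every library of both other groups. It was 6.18-fold lower than with LPS (log2 -2.63, SE 0.35, adjusted p = 7.56e-04) and 4.62-fold lower than in vehicle cells (log2 -2.21, SE 0.35, adjusted p = 7.00e-04). It was thus the only member of the 10 called below vehicle in pretreated cells, and both calls held under all 20 alternatives, although the values were smaller on log2(TPM + 1) (-1.14 and -1.47). LPS over vehicle was 0.42 (SE 0.32, adjusted p = 0.288), where vehicle replicate 3 lay among the LPS libraries. Without that library the value was 0.80 and called (adjusted p = 0.0177). Against that library alone, in the libraries of high mitochondrial share, it was -0.23, with no replicate in the vehicle arm. In TPM the direction was the opposite, with 2.72, 2.88 and 2.91 in vehicle and 2.34, 2.12 and 1.74 in LPS libraries. On log2(TPM + 1) limma gave -0.33 for Nr4a2 (adjusted p = 0.0711), where the median of all genes was -0.61. What set the 2 scales apart was not tested.

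Nr4a1 (ENSMUSG00000023034, chromosome 15: 101254269 to 101274795), which encodes NUR77, had 2.41, 2.45 and 2.86 CPM in vehicle, 1.87, 1.39 and 1.62 CPM in LPS and 2.38, 2.04 and 3.47 CPM in calycosin plus LPS cells. The LPS libraries lay below all others, and the vehicle and calycosin plus LPS groups overlapped. The fall with LPS was 1.58-fold (log2 -0.66, SE 0.25) at an adjusted p of 0.0499968, and 13 of 20 alternatives lost the call. Each single vehicle or LPS library left out ended it, with adjusted p from 0.0589 to 0.148, as did leaving out calycosin plus LPS replicate 1 (0.0686), and the replicate block gave 0.0537. With the GC content offset the log2 value was smaller, -0.27 (adjusted p = 0.449). The call was kept by limma on log2(TPM + 1) (-0.85, adjusted p = 0.00199), where the median of all genes was -0.61. DESeq2 (-0.64, adjusted p = 0.0473) and the mitochondrial share as a covariate (-0.76, adjusted p = 0.0176) also kept it. Calycosin plus LPS over LPS was 0.69 (SE 0.26, adjusted p = 0.0705), and it was called without the 2 libraries that stood apart (0.87, adjusted p = 0.0276) and when that share was a covariate (0.66, adjusted p = 0.0381).

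**Figure D2:**
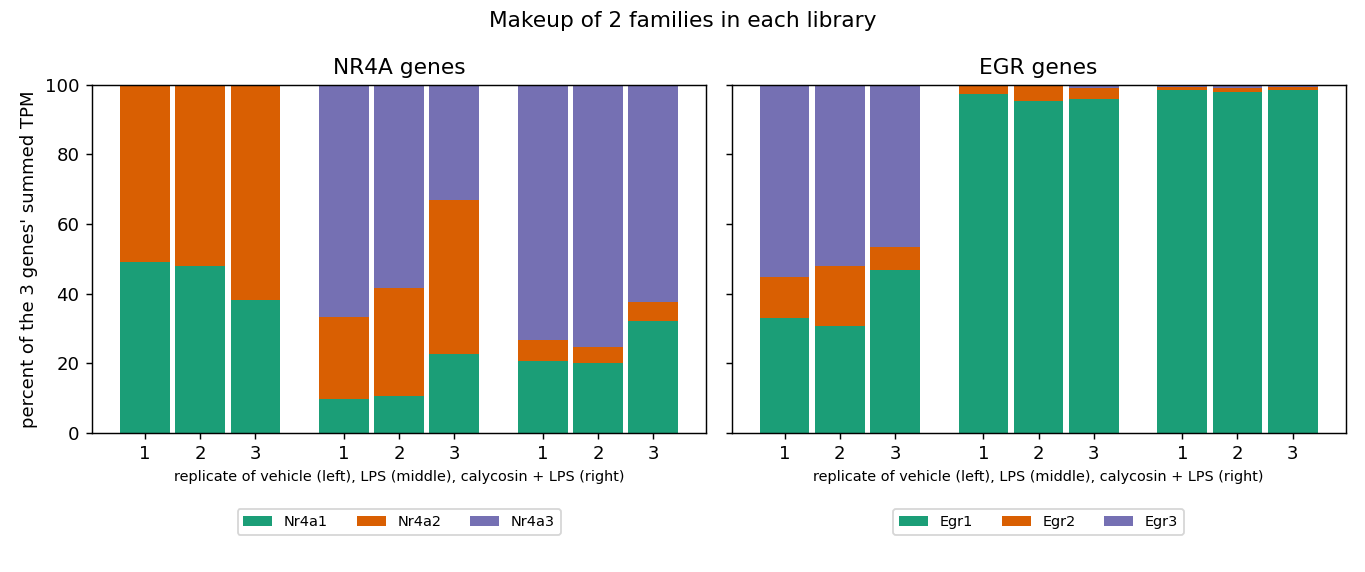
Percent of the summed TPM of the 3 NR4A genes (left) and the 3 EGR genes (right) that each gene makes up, in each of the 9 libraries. In the NR4A group Nr4a3 is at most 0.353% in vehicle cells and 62.4% to 75.4% with calycosin plus LPS, while Nr4a2 is 4.51% to 6.00% there.

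The summed NR4A level was 5.21 ± 0.434 TPM in vehicle, 6.91 ± 2.99 TPM in LPS and 7.27 ± 1.23 TPM in calycosin plus LPS cells (SD, n = 3), and the LPS libraries overlapped both other groups. Nr4a2 made up 51.0% to 61.5% of it in vehicle, 23.6% to 44.2% in LPS and 4.51% to 6.00% in calycosin plus LPS libraries. Nr4a3 made up at most 0.353%, 33.1% to 66.7%, and 62.4% to 75.4%. Nr4a1 made up 38.2% to 49.0%, 9.71% to 22.7% and 20.1% to 31.97%. The Nr4a2 share thus did not overlap between any 2 groups. The TPM of Nr4a3 varied more within the LPS group (6.62, 4.01 and 1.31 TPM) than its CPM did. In counts without length correction, the Nr4a2 share was 52.5% to 67.7%, 37.7% to 39.7% and 6.43% to 7.57%, and the Nr4a3 share was 0% to 0.784%, 47.6% to 51.5% and 66.7% to 75.0%.

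The 3 IER genes had the highest mean TPM of the members in vehicle cells. Ier3 (ENSMUSG00000003541, chromosome 17: 35821684 to 35822923), whose product IEX-1 modulates apoptosis and NF-kappaB and ERK signalling, had 44.8, 36.8 and 27.7 CPM in vehicle, 412, 371 and 446 CPM in LPS and 146, 163 and 142 CPM in calycosin plus LPS cells. The 3 groups did not overlap. Ier3 rose 11.2-fold with LPS (log2 3.49, SE 0.18, adjusted p = 2.77e-07) and was 2.73-fold lower with calycosin plus LPS (log2 -1.45, SE 0.17, adjusted p = 4.10e-04). This second call was lost in limma on log2(TPM + 1) (log2 -1.11, adjusted p = 0.0700). Ier3 was still 4.12-fold above vehicle in pretreated cells (adjusted p = 1.18e-05).

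Ier2 (ENSMUSG00000053560, chromosome 8: 84661331 to 84662852), a nuclear regulator of growth factor responses, had 28.0, 26.6 and 31.995 CPM in vehicle, 199, 197 and 196 CPM in LPS and 50.5, 56.5 and 53.3 CPM in calycosin plus LPS cells. The 3 groups did not overlap. Ier2 rose 6.84-fold with LPS (log2 2.77, SE 0.11, adjusted p = 4.03e-08) and was 3.69-fold lower with calycosin plus LPS (log2 -1.88, SE 0.11, adjusted p = 2.62e-05), and neither call was lost under any of the 20 alternatives. It stood 1.85-fold above vehicle in pretreated cells (adjusted p = 1.05e-04), a call that was lost in limma on log2(TPM + 1) (log2 0.44, adjusted p = 0.156).

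Ier5 (ENSMUSG00000056708, chromosome 1: 155096361 to 155099636), which acts with the phosphatase PP2A on heat shock factor HSF1, had 51.2, 52.6 and 25 CPM in vehicle, 125, 119 and 149 CPM in LPS and 90.6, 126 and 90.6 CPM in calycosin plus LPS cells. Vehicle cells lay below all stimulated libraries, and the stimulated groups overlapped. Ier5 rose 3.05-fold with LPS (log2 1.61, SE 0.27, adjusted p = 6.55e-04), a call lost in limma on log2(TPM + 1) (log2 0.87, adjusted p = 0.120). Pretreated cells were 2.38-fold above vehicle (adjusted p = 0.00364), and this was likewise lost (log2 0.83, adjusted p = 0.168). Calycosin plus LPS over LPS was -0.36 (SE 0.26, adjusted p = 0.335). The 2 libraries that stood apart in mitochondrial share were also those in which Ier5 departed from its group. Without them the difference was -0.51 and called (adjusted p = 0.00658), and in the 6 libraries of high share alone it was -0.51 (adjusted p = 0.0150). Those 6 libraries hold 1 vehicle library, replicate 3, against which the log2 difference was 2.37 for LPS and 1.86 for pretreated cells, with no replicate in the vehicle arm. Without the 2 libraries that stood apart the rises were 1.28 and 0.77, both called (adjusted p = 2.08e-05 and 6.09e-04).

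**Figure D3:**
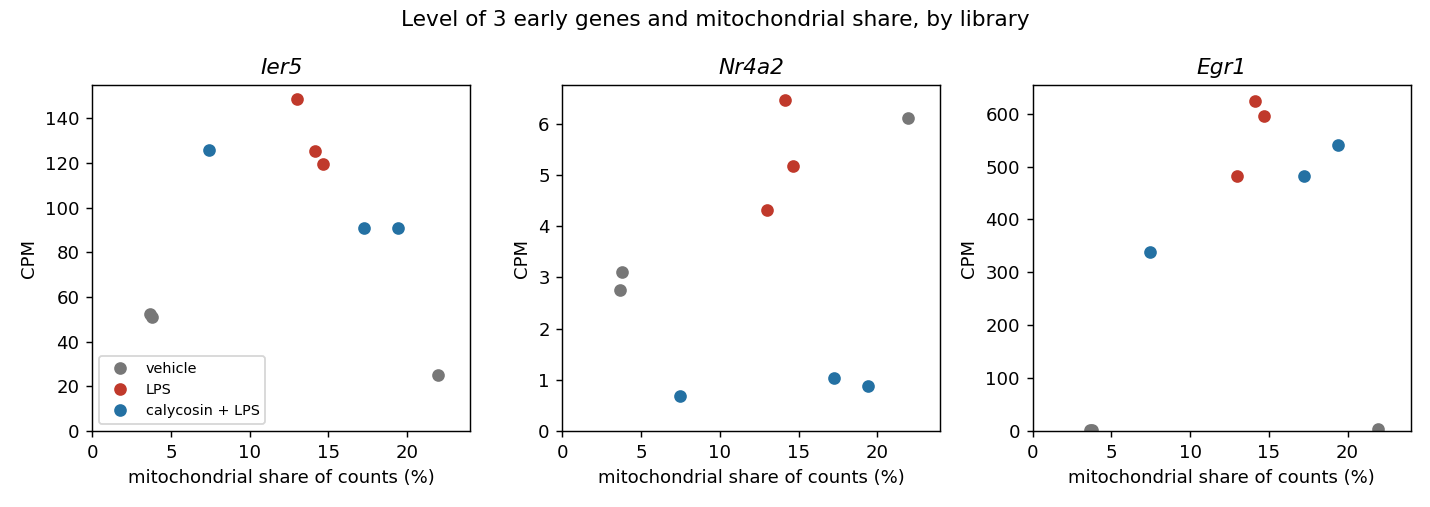
CPM of Ier5, Nr4a2 and Egr1 (vertical axes, from 0) against the percent of a library's counts in mitochondrially encoded genes, 1 dot per library, coloured by group. The vehicle library at 21.9% has the lowest Ier5 (25 CPM) and the highest Nr4a2 (6.11 CPM) of its group.

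Klf2 (ENSMUSG00000055148, chromosome 8: 72319033 to 72321656) had 10.2, 10.1 and 9.85 CPM in vehicle, 12.1, 8.90 and 9.14 CPM in LPS and 15.3, 15.4 and 14.99 CPM in calycosin plus LPS cells. The pretreated libraries lay above all others, and vehicle and LPS overlapped. Klf2 was 1.52-fold higher with calycosin plus LPS than with LPS (log2 0.60, SE 0.14, adjusted p = 0.0110) and 1.51-fold higher than with vehicle (log2 0.60, SE 0.14, adjusted p = 0.00605). LPS over vehicle was -0.01 (SE 0.14, adjusted p = 0.974). Klf2 has the highest transcript GC content of the 10 (61.6%, against a median of 49.5% over genes tested). With a GC content offset LPS over vehicle was 0.58 and called (adjusted p = 0.00779), and calycosin plus LPS over LPS was 0.42 and not called (adjusted p = 0.0524). In limma on log2(TPM + 1) LPS over vehicle was -0.72 (adjusted p = 0.0445), calycosin plus LPS over LPS 0.86 (adjusted p = 0.0694) and calycosin plus LPS over vehicle 0.14 (adjusted p = 0.712). These values stand beside the medians of all genes on that scale given above, and what moved them was not tested.

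**Figure D4:**
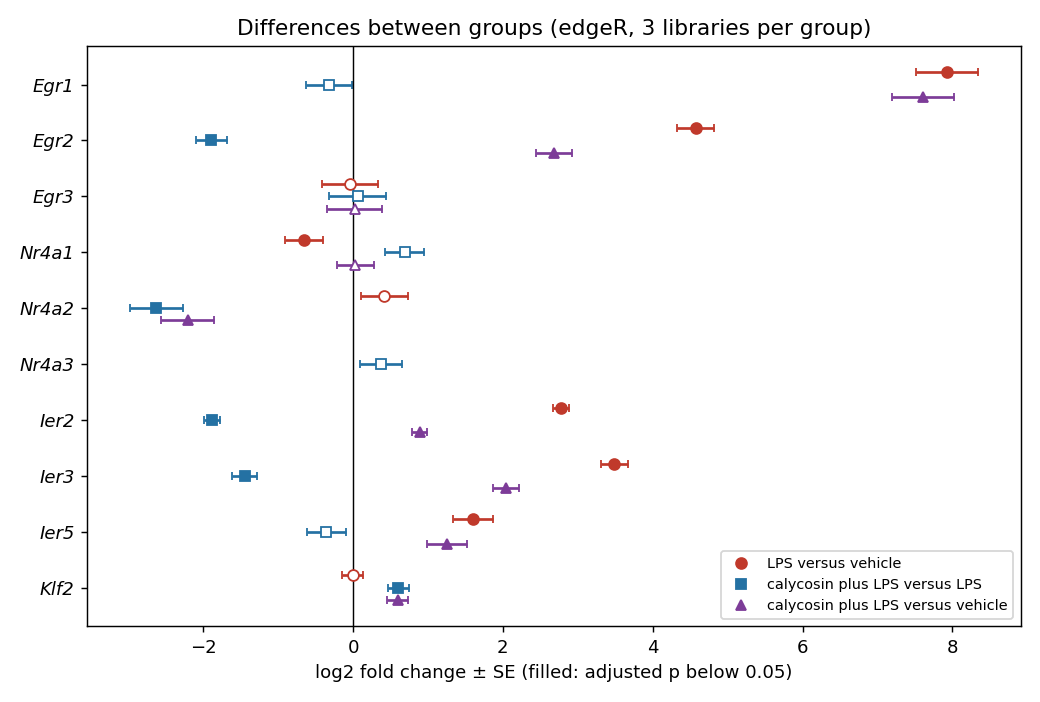
Log2 fold change with its SE (horizontal axis) for each gene in the 3 comparisons, filled where the adjusted p was below 0.05. Egr2, Ier2 and Ier3 lie right of 0 with LPS and left of 0 for calycosin plus LPS over LPS, and Nr4a2 lies left of 0 for both calycosin comparisons. Nr4a3 over vehicle is left out because its vehicle level was under the floor.

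The order of the members by TPM also differed between groups. In vehicle cells Ier3 (77.6 ± 35.1 TPM), Ier2 (43.2 ± 8.89), Ier5 (32.4 ± 17.7) and Klf2 (12.7 ± 3.72) led, and each overlapped the next in range. Nr4a2 (2.84 ± 0.101), Nr4a1 (2.36 ± 0.483) and Egr3 (1.53 ± 0.155) followed without overlap, then Egr1 (1.09 ± 0.231), which overlapped Egr3, and Egr2 (0.359 ± 0.174) and Nr4a3 (0.0120 ± 0.0105). In LPS cells Ier3 stood first (477 ± 57.2 TPM), Ier2 (171 ± 4.55) and Egr1 (166 ± 17.1) overlapped, and Ier5 was the fourth (52.7 ± 7.95). Klf2 (7.13 ± 1.17), Egr2 (5.50 ± 1.74), Nr4a3 (3.98 ± 2.66) and Nr4a2 (2.07 ± 0.305) then each overlapped the next, above Egr3 (0.873 ± 0.482) and Nr4a1 (0.859 ± 0.127). With calycosin plus LPS, Ier3 (225 ± 66.3 TPM) and Egr1 (164 ± 5.67) led without overlap, followed by Ier2 (59.2 ± 15.8) and Ier5 (53.8 ± 22.7), which overlapped. Klf2 (13.9 ± 3.17) and Nr4a3 (5.18 ± 1.33) came next. Nr4a1 (1.71 ± 0.229), Egr2 (1.67 ± 0.297) and Egr3 (1.17 ± 0.237) overlapped in turn, and Nr4a2 was last (0.386 ± 0.0472).

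Genes with the most similar course were found by Pearson's r of log2 CPM over the 9 libraries, among genes that reach 10 CPM in at least 1 group. The libraries share their treatments, so r is a description. Egr1 was closest to the interferon-response genes Xaf1 and Slfn8 (r = 1.000 and 0.999), and Nr4a3 to Ifi208 and the inflammasome sensor gene Nlrp3 (both 0.997). Egr2 was closest to Cyfip1 and the lectin receptor gene Clec4e (both 0.994), which had 1078 ± 11.02 CPM with LPS and 370.5 ± 6.84 CPM with calycosin plus LPS. Ier2 was closest to the cytokine gene Il1b and to Rheb (both 0.997), Ier3 to Rmdn3 (0.998) and Stat3 (0.996), and Ier5 to Pi4k2a (0.996) and Stard3 (0.994). A high r does not mean an equal fold. Il1b had 0 CPM in vehicle, 35.2 ± 3.43 in LPS and 0.334 ± 0.137 in calycosin plus LPS cells. Rheb had 60.4 ± 1.35, 109 ± 2.23 and 73.5 ± 3.32 CPM. Nr4a2 was closest to Snx9 (0.986) and Nf1 (0.985), Klf2 to Snx33 (0.970) and Ddx59 (0.962), and Nr4a1 to Mrps34 (0.947) and Palb2 (0.919). Egr3, with its low counts, was closest to Cltb (0.904) and Snapin (0.864). Within the 10, Egr1 and Nr4a3 were closest (r = 0.992), followed by Egr2 and Ier3 (0.985).

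Genes that act with the members moved in both directions, as did genes at large. Of all genes tested, 27.3% were higher and 28.9% lower with LPS than with vehicle. For calycosin plus LPS over LPS these shares were 16.1% and 12.9%. The list counts in the paragraphs below stand beside these shares, and no list was tested as a set. Of 9 tested partners and corepressors of EGR and NR4A proteins, 4 were higher and 2 lower with LPS (median log2 0.24). Nab2, a corepressor that EGR factors induce and that then restrains them, rose from 23.0 ± 3.17 to 120 ± 6.12 CPM and was 3.22-fold lower with calycosin plus LPS (37.2 ± 2.11 CPM, adjusted p = 5.48e-05). Its relative Nab1 rose from 58.1 ± 9.88 to 201 ± 11.8 CPM with LPS. The NR4A partner gene Rxrb fell from 52.1 ± 16.7 to 18.6 ± 0.871 CPM, and Rxra went from 1.75 to 2.29 CPM in vehicle libraries to between 0 and 0.246 CPM in LPS libraries (adjusted p = 0.00333), with no fold given because the LPS mean lay below the floor. With calycosin plus LPS over LPS, 1 of the 9 was higher (Nr2c1, 1.90-fold) and 3 were lower (median -0.32, 1 lower by limma on log2(TPM + 1)), among them the deacetylase gene Hdac1 (1.77-fold), a call lost in limma on log2(TPM + 1) (adjusted p = 0.316).

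Of 10 tested relatives of the members, 4 were higher and 5 lower with LPS (median -0.45). Klf6 rose from 119 ± 35.3 to 772 ± 35.0 CPM and Klf7 from 34.6 ± 14.8 to 127 ± 28.0 CPM, while Ier5l fell 5.59-fold and Klf16 4.64-fold. With calycosin plus LPS 2 were higher and none lower than with LPS in edgeR (median 0.08). The number lower was 2 at an unadjusted p below 0.05, 1 by DESeq2 and 0 by limma on log2(TPM + 1). The 2 higher were Klf10, a TGF-beta inducible repressor, and Klf11. Klf10 had 20.6 ± 2.20 CPM in vehicle, 5.97 ± 0.951 in LPS and 24.4 ± 2.68 in calycosin plus LPS cells. Klf11 had 4.56 ± 0.431, 1.35 ± 0.0618 and 4.21 ± 0.179 CPM. Both were lower with LPS than with vehicle, by 3.45-fold and 3.37-fold. Neither was called between calycosin plus LPS and vehicle (edgeR, adjusted p = 0.213 and 0.588). Egr4 and Klf5 had 0 counts throughout, a result that allows a level of up to 0.137 CPM per library.

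Of 15 genes of the kinase cascades that reach early gene promoters, 6 were higher and 5 lower with LPS (median 0.03), against 2 and 9 by limma on log2(TPM + 1). Map3k8, which encodes the kinase TPL2 that carries TLR4 signals to ERK, rose from 6.90 ± 0.938 to 33.9 ± 2.598 CPM, and Rps6ka3, for the kinase RSK2, from 56.8 ± 29.1 to 134 ± 15.5 CPM. Rps6ka5, for MSK1, a kinase of CREB and histone H3, fell from 10.6 ± 0.973 to 2.31 ± 0.230 CPM and was 3.11-fold higher again with calycosin plus LPS (adjusted p = 4.74e-04). Rps6ka1 fell 1.49-fold with LPS, a call lost with the GC content offset (adjusted p = 0.146). In calycosin plus LPS over LPS Rps6ka5 was the only higher gene of the 15 and 2 were lower (median -0.13), against none lower by limma on log2(TPM + 1) and 5 by DESeq2. Map2k1, for the ERK activator MEK1, was 1.63-fold lower, a call lost in limma on log2(TPM + 1) (adjusted p = 0.548), and Mapkapk2 1.42-fold (adjusted p = 0.0460), a call lost in limma (0.775), without a filter (0.109), without mitochondrial genes in the scaling (0.0553) and without any 1 of 7 libraries (0.0624 to 0.151).

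Of 13 factors bound at these promoters, 3 were higher and 4 lower with LPS (median -0.05), against 1 and 8 by limma on log2(TPM + 1). Only Crtc3 was called with calycosin plus LPS over LPS (1.46-fold higher, median of the 13 0.14). Crem, for a CRE-binding modulator, rose from 7.87 ± 0.445 to 30.7 ± 4.72 CPM, and Mef2d fell from 172.7 ± 77.1 to 76.6 ± 15.1 CPM, a call lost with the GC content offset (adjusted p = 0.0547). Crtc2 (2.14-fold higher, adjusted p = 0.0406) and Elk3 (1.38-fold lower, adjusted p = 0.0377) were called with LPS at the margin. Crtc2 lost the call in 9 alternatives and Elk3 in 8 (highest adjusted p = 0.299 and 0.109), among them those without any 1 LPS library. The Crtc3 call was lost without LPS replicate 2 or 3 or calycosin plus LPS replicate 1 or 3, with the GC content offset and in limma (0.0507 to 0.145).

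Of 22 other immediate early genes, 17 were higher with LPS (13 by limma on log2(TPM + 1)) and none lower by edgeR at an adjusted p below 0.05 (lower: 0 at an unadjusted p below 0.05, 0 by DESeq2 and 2 by limma on log2(TPM + 1), median 2.04). Plk2, a stress-responsive kinase gene, rose from 13.9 ± 1.79 to 520.3 ± 31.6 CPM and Myc from 0.246 ± 0.240 to 15.3 ± 1.26 CPM. With calycosin plus LPS 3 of the 22 were higher and 10 lower than with LPS (median -0.59), against 2 and 2 by limma on log2(TPM + 1). Plk2 was 5.61-fold lower (92.7 ± 8.31 CPM, adjusted p = 2.33e-05) and the AP-1 gene Fosl2 2.98-fold lower. Gadd45b, an activator of stress kinases, was 2.22-fold higher (87.9 ± 10.54 CPM), and Gem 1.82-fold higher (adjusted p = 0.0252), a call lost without LPS replicate 1 or 3 or calycosin plus LPS replicate 1 or 2 (0.0660 to 0.0805).

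Of 12 tested genes of feedback on early gene induction, 7 were higher and 4 lower with LPS (median 0.69), against 2 and 5 by limma on log2(TPM + 1). None was higher and 6 were lower in pretreated than in LPS cells (higher: 0 at an unadjusted p below 0.05, 0 by DESeq2 and 0 by limma on log2(TPM + 1), median -0.35). By limma none of the 12 was lower on that scale either, against 6 by DESeq2. Dusp5, a nuclear phosphatase of ERK, rose from 4.64 ± 0.525 to 191 ± 19.2 CPM and was 1.73-fold lower with calycosin plus LPS (111 ± 13.4 CPM, adjusted p = 0.00242). Zfp36, for tristetraprolin, which directs the decay of AU-rich mRNAs, rose from 12.0 ± 2.80 to 386 ± 39.3 CPM and was 1.76-fold lower (219 ± 7.75 CPM, adjusted p = 0.00489). In limma on log2(TPM + 1) these lower calls were lost (adjusted p = 0.263 and 0.144). Its relatives Zfp36l2 and Zfp36l1 fell with LPS, by 7.62-fold and 2.73-fold (adjusted p = 3.14e-06 and 0.0371), and the Zfp36l1 call was lost without vehicle replicate 3 or any 1 LPS library (0.0604 to 0.124).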

How the data were processed

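RNA of 9 RAW 264.7 libraries was sequenced. Per the submitters' processing notes, the tools included Trimmomatic 0.36, HISAT2 2.0 and StringTie 1.3.3b with mm10. Not given in the sources used here were the read counter, annotation and strand setting, so reads of overlapping genes on opposite strands cannot be told apart. The whole-number counts per gene and the TPM values (transcript abundance scaled for length) were deposited by the authors. Groups come from the labels.

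Counts were filtered with edgeR's filterByExpr (14458 of 51826 genes kept), scaled by TMM (trimmed mean of M values, factors 0.786 to 1.42) and tested in R 4.3.3 with edgeR 4.0.16 (quasi-likelihood test, all 3 groups in one fit, two-sided, Benjamini-Hochberg adjustment, threshold 0.05). Log2 CPM used a prior count of 2. TPM were tested with limma 3.58.1 on log2(TPM + 1), where folds of low genes are understated, and on log2(TPM + 0.1). Other alternatives were DESeq2 1.42.0, no filter, only the 6 libraries compared, a GC content offset (from GENCODE release 21 transcripts of the mouse), a replicate block, scaling without mitochondrial genes, and leaving out each library or the 2 that stood apart. The last 3 named here were chosen after seeing the data: mitochondrial share as a covariate, only the libraries of high share, and shares of counts in place of TPM. Which 2 libraries stood apart was likewise read from these data. The edgeR script was tested on simulated data. No 2 libraries of a group agreed within sampling noise (lowest chi-square per degree of freedom 14.2).

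The members and lists were chosen with earlier results of these data known. Named were all members, from each list and each of the first 2 comparisons up to 2 called genes per direction with the largest fold, and for each member the 2 genes with the highest correlation. Promoter windows are from RefSeq, gene positions from GENCODE. The macrophage marker Itgam, whose symbol has more than 1 identifier, was left out. The floor of 3 counts corresponds to 0.0602 to 0.137 CPM. Count intervals and floors cover counting error only.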

Additional observations from a re-analysis of the deposited data

How the results depend on the processing

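Of the 600 values of the members under 20 alternatives, 530 kept their direction and their side of the threshold, 27 lost a call, 10 gained one and 33 changed sign, all of the last where the reported test made no call (with the GC content offset Klf2 was then called, adjusted p = 0.00779). The number of members lower with LPS (1) was 2 by limma on either TPM scale. It was 0 without a filter, with only the 6 libraries compared, with the GC content offset, with the replicate block, without the 2 libraries that stood apart and among libraries of high mitochondrial share, and 0 to 1 when single libraries were left out. The libraries of high share hold 1 vehicle library, so each comparison with vehicle there has no replicate in that arm, assumes that it varies like the other groups, and says nothing about stability. Between calycosin plus LPS and LPS, the number called (5) was 3 on either TPM scale and 8 with the mitochondrial share as covariate. The number higher there (1) was 0 on either TPM scale and with the GC content offset, and 2 without the 2 libraries that stood apart and with the covariate. Between calycosin plus LPS and vehicle, 5 were called and 4 higher on either TPM scale, against 8 and 7. The cause was not tested.

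Sign changes were as follows, on the log2 scale. For LPS over vehicle, Egr3 was 0.0546 with the GC content offset, 0.10 without the 2 libraries that stood apart and -0.51 to 0.18 when single libraries were left out. Nr4a2 was -0.33 and -0.45 on the TPM scales and -0.23 among libraries of high mitochondrial share. Klf2 was 0.0154 by DESeq2, 0.58 with the GC content offset, 0.00346 with the covariate, 0.00206 among libraries of high share and -0.15 to 0.0779 with single libraries left out. For calycosin plus LPS over LPS, Egr3 was -0.0118 with the GC content offset and -0.15 to 0.54 with single libraries left out. For calycosin plus LPS over vehicle, Egr3 was -0.000724 by DESeq2, -0.23 and -0.38 on the TPM scales, -0.00635 without mitochondrial genes in the scaling, -0.0682 with the covariate, -0.29 among libraries of high share and -0.0903 to 0.17 with single libraries left out. Nr4a1 was -0.30 and -0.43 on the TPM scales, -0.10 with the covariate and -0.21 to 0.19 with single libraries left out.

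No clear pairing of the libraries by replicate number was seen. Deviations from the group means of same-numbered libraries correlated from -0.173 to 0.364 over genes, and those of differently numbered libraries from -0.472 to 0.358. With 3 libraries per group, some of them standing apart, these values cannot show whether days or batches were shared. With the replicate block the called members were 6, 5 and 8 in the 3 comparisons in the order above, against 7, 5 and 8 without it. Depth limits Egr3, Nr4a3 in vehicle cells and Rxra in LPS cells. Few counts also underlie the folds of Egr2 over vehicle (12 to 30 counts per vehicle library). The same holds for Nr4a2 with calycosin plus LPS (27 to 33 counts per library) and for Myc in vehicle cells (0.0617 to 0.517 CPM).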
